A study of Mus musculus with 90 samples.

Results

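The genes described here are 9 chemokines and the macrophage growth factor Csf1, as 2 mouse tumour cell lines transcribed them during exposure to interferon-γ (IFNγ). They were taken by symbol from the deposited count matrix, in which 10 of 53697 gene identifiers are members. Of these, 3 are the ligands of CXCR3 (Cxcl9, Cxcl10 and Cxcl11). The other 7 are the neutrophil attractant Cxcl1, the membrane-bound ligands Cxcl16 and Cx3cl1, the leukocyte attractants Ccl2, Ccl5 and Ccl7, and Csf1. YUMM2.1 is a mouse melanoma line and CT26 a mouse colon carcinoma line, each a single established line grown without other cells. Each contributed 45 samples in 15 groups of 3 replicates. At 0 weeks there were control cells given bovine serum albumin (BSA, 0 IU/mL IFNγ) and naive cells given 50 IU/mL IFNγ for 2 h or 24 h. At 1, 2 and 3 weeks there were BSA controls, cells kept in 50 IU/mL IFNγ and not rechallenged (0 h), and cells kept in IFNγ and rechallenged with fresh IFNγ for 2 h or 24 h. All cells were replated in the last 48 h before harvest. Replicates were triplicate experiments by the labels, and p-values measure only the spread between those samples.

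IFNγ binds its receptor on the cell surface and activates the kinases JAK1 and JAK2. Signalling reaches GAS elements in DNA and induces IRF1, a factor that binds ISRE elements and sustains many targets. The CXCR3 ligands are the classical chemokines of this pathway, named for their induction by interferon, and they draw activated T cells and NK cells. Ccl2 and Ccl7 recruit monocytes through CCR2, Ccl5 recruits T cells and monocytes through CCR1 and other receptors, and Cxcl1 recruits neutrophils through CXCR2. Cxcl16 and Cx3cl1 are made as transmembrane proteins, are cut from the surface by ADAM proteases, and act on CXCR6 and CX3CR1. Csf1 is the survival and growth factor of monocytes and macrophages and acts on the receptor CSF1R.

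The genes of the 3 CXCR3 ligands lie side by side on the minus strand of chromosome 5 (GRCm38, GENCODE M21), Cxcl9 at chr5:92321347-92328079, Cxcl10 at chr5:92346638-92348889 and Cxcl11 at chr5:92359544-92365485. Ccl2 (chr11:82035571-82037453) and Ccl7 (chr11:82045712-82047525) neighbour each other on the plus strand of chromosome 11. Ccl5 (chr11:83525778-83530518) and Cxcl16 (chr11:70453983-70459984) are on its minus strand. Cxcl1 is at chr5:90891241-90893115 on the plus strand, Cx3cl1 at chr8:94772009-94782427 on the plus strand and Csf1 at chr3:107741048-107760469 on the minus strand. Cxcl10 and Cxcl11 lie inside the region of Art3, which runs on the opposite strand and had counts in 41 of 45 YUMM2.1 libraries, at most 10.1 CPM (a count scaled to the library total). The sources used here do not say whether counting used strand, so reads of these pairs may not be separable. Low Cxcl11 values are uncertain for that reason, and so are low Cxcl10 values, such as the control levels under its fold changes. Cxcl11 is classed as a polymorphic pseudogene in this annotation. Ccl2 lies inside Gm17268, which had no count in any library.

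Promoter sequences were taken from RefSeq (GRCm38.p6, 250 bases before to 50 bases after the gene start), where 5 of the 10 genes had an entry. Printed here are Cxcl10, the member with the most IFNγ calls, its neighbour Cxcl9, and Csf1. They were searched on both strands for 3 motifs of 9 letters, GAS (TTCNNNGAA), the ISRE core (GAAANNGAA) and κB (GGGNNTTCC), and matches are in capitals. The Cxcl10 window is chr5:92348840-92349139 (minus strand), that of Cxcl9 is chr5:92328030-92328329 (minus strand) and that of Csf1 is chr3:107760420-107760719 (minus strand).
Cxcl10: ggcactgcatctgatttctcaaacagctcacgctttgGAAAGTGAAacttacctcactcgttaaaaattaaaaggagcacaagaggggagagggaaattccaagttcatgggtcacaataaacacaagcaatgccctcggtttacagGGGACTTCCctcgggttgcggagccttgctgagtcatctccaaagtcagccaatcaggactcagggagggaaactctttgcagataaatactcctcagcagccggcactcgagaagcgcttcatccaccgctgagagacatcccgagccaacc
Cxcl9: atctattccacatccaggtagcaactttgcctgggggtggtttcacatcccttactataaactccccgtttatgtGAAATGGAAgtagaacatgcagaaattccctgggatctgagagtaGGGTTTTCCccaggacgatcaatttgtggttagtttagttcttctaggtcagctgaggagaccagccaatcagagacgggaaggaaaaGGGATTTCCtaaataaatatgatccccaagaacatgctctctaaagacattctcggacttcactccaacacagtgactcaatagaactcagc
Csf1: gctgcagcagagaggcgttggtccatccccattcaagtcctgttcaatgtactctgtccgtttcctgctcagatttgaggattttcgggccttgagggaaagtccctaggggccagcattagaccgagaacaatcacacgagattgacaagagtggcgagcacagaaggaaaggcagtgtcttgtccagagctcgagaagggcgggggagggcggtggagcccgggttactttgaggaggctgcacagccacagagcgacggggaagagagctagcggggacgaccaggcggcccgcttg
The Cxcl10 window held 1 ISRE core match at position -213 from the start and 1 κB match at -103, and the Cxcl9 window held 1 ISRE core match at -175 and 2 κB matches at -130 and -42. No matches overlapped. None of the 3 letter patterns was found in the windows of Csf1, Cxcl1 and Cx3cl1. The GAS letters were found in none of the 5. This says only that these letters are not in these windows. The κB letters miss longer stretches that begin GGG and end TTCC. Such stretches are gggaaattcc in the Cxcl10 window and gggaatttcc in that of Cxcl1, and they were not counted. Of all 32851 promoters of the same length, 8.3% held the GAS letters, 8.56% the ISRE core and 5.82% the κB letters.

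Library totals ran from 274719 to 3161276 counts in YUMM2.1 (median 1403265) and from 295157 to 2205285 in CT26 (median 1318011). The libraries below 25% of their line's median were replicate 3 of YUMM2.1 3 w IFNγ 0 h, CT26 1 w IFNγ 0 h and CT26 3 w IFNγ 0 h. Libraries of the 2 lines that carried the same group label and replicate number deviated from their group means together. Over 45 such pairs the within-group deviations of log2 library total had r = 0.733, and over 10552 genes the median r of log2(CPM + 1) deviations was 0.131, reaching 0.965 for Rps24. What these pairs shared is not given in the labels, and its part in the results was not tested. As markers of the lines, Sox10 had a median of 26.9 CPM in YUMM2.1 and no counts in CT26, while Krt18 had a median of 16.25 CPM in CT26 and a single count in YUMM2.1. The other listed markers separated the lines less well. The pigment cell genes Tyrp1, Mlana and Pmel had 0, 1 and 19 counts in all of YUMM2.1. Dct had 56 counts in YUMM2.1 and 127 in CT26, and Tyr had 15 and 21. Mitf had medians of 2.03 and 2.58 CPM. Of the epithelial genes, Krt20 had a median of 51.8 CPM in CT26 and 24 counts in YUMM2.1. In CT26 Epcam, Krt19, Cdh1 and Vil1 had no counts, Krt8 had 4 and Cdx2 had 5. The 13 leukocyte markers summed to 2.07 to 27.9 CPM in YUMM2.1. In CT26 they summed to 34.1 to 82.0 CPM, mostly from Cd14 (median 41.7 CPM). Of the 13, 5 had no counts in YUMM2.1 and 4 had none in CT26, with Cd3e and Adgre1 at 0 in both. Ptprc had 11 counts in YUMM2.1 and 67 in CT26, and Cd68 had 451 and 159.

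CPM below is a gene's count scaled to the total of its library. Differences are log2 fold changes ± standard error from edgeR's quasi-likelihood test on raw counts, called at a Benjamini-Hochberg adjusted p below 0.05 over all genes tested in that line. The filter on low counts left 9589 genes in YUMM2.1, with 6 members (Cxcl10, Cxcl11, Ccl2, Ccl5, Ccl7 and Csf1). It left 8516 genes in CT26, with 2 members (Cxcl10 and Csf1). Cxcl9, Cxcl1, Cxcl16 and Cx3cl1 passed in neither line. A member that passed only through the groups in which it was high had to differ, so the calls below describe single genes and are not a rate over the 10. In these bulk samples, fewer producing cells and less RNA per cell cannot be told apart.

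Cxcl10 was the member that rose most often. In naive YUMM2.1 cells it went from 1.07, 1.23 and 1.86 CPM in the 3 controls to 16.9, 16.4 and 13.5 CPM after 2 h of IFNγ. The groups did not overlap, and the rise was 3.43 ± 0.52 log2 units, a 10.8-fold change (adjusted p = 2.9e-05). It was the only one of 6 tested members called there, where 0.24% of all genes tested were called. At 24 h the values were 6.995, 4.89 and 12.4 CPM, again above every control, and the rise was 2.58 ± 0.58 (adjusted p = 0.0074, 0.886% of genes called). The 24 h call rested on few counts (5 and 6 in replicates 2 and 1 against 29 in replicate 3). It was lost without replicate 1 (adjusted p = 0.166) or without replicate 3 (adjusted p = 0.345).

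In CT26 the naive rise of Cxcl10 was called at 24 h. Controls had 1.37, 3.14 and 0 CPM and the 24 h cells 17.3, 6.47 and 12.7 CPM, with no overlap. The rise was 2.96 ± 0.72 log2 units (7.77-fold, adjusted p = 0.012), the single call among 2 members tested, where 2.04% of genes were called. It was lost without replicate 1 (adjusted p = 0.384) or without replicate 3 (adjusted p = 0.194). After 2 h the CT26 values were 0, 7.05 and 2.5 CPM and overlapped the controls (1.06 ± 0.815, adjusted p = 1, 0.235% of genes called). The difference between the lines in the 24 h response was -0.44 ± 1.10 log2 units, YUMM2.1 minus CT26 (adjusted p = 0.989, 0.087% of genes called).

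**Figure D1:**
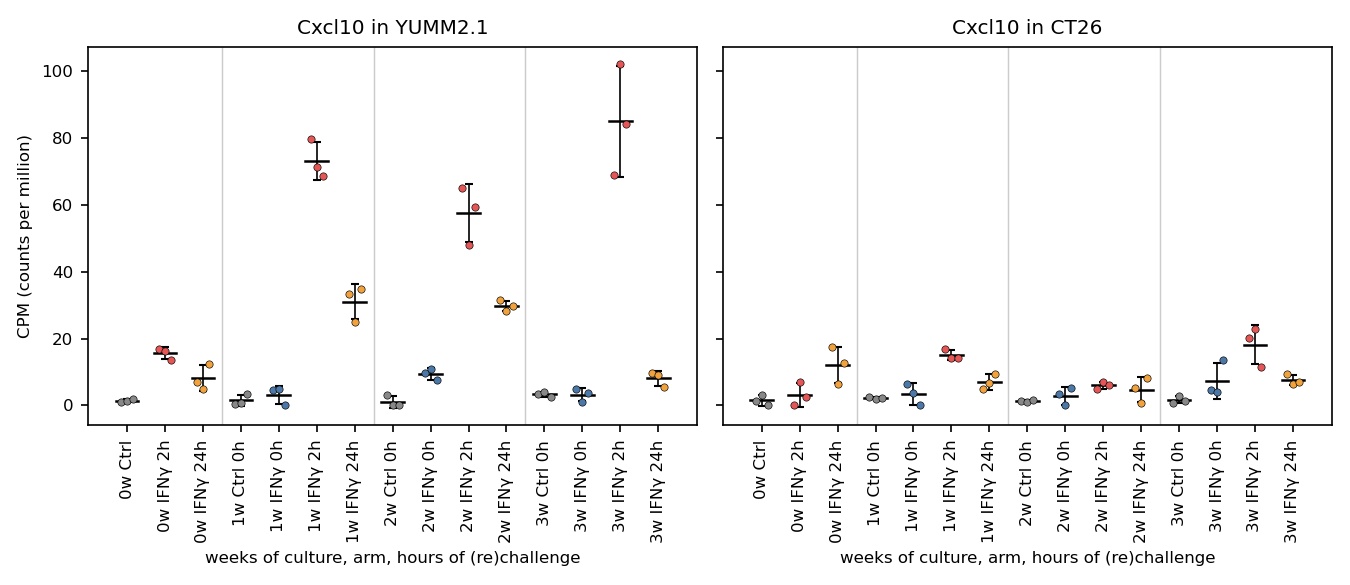
Cxcl10 in CPM (y axis, linear) in each of the 15 groups of YUMM2.1 (left) and CT26 (right). Points are the 3 replicates, horizontal lines the group mean and bars its SD; grey is control, blue IFNγ without rechallenge, red 2 h and orange 24 h of IFNγ. In YUMM2.1 the 9 libraries rechallenged for 2 h lie between 48.1 and 102 CPM, above every other library of that line; no CT26 library exceeds 22.7 CPM.

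During continuous exposure without rechallenge, Cxcl10 in YUMM2.1 reached at most 10.98 CPM, and 1 of 3 weekly differences from controls was called. It measured 4.58, 4.78 and 0 CPM at 1 week against 0.433, 0.753 and 3.48 CPM in the controls (1.16 ± 0.55, adjusted p = 0.797, 0.73% of genes called). Without replicate 3, whose treated library had no Cxcl10 count, the 1-week difference was 2.75 and just passed (adjusted p = 0.0499). At 2 weeks it measured 9.62, 10.98 and 7.475 CPM against 3.15, 0 and 0 CPM. That difference of 2.89 ± 0.63 was called (adjusted p = 0.0049, 1.12% of genes called) and was lost without replicate 2 (adjusted p = 0.247) or replicate 3 (adjusted p = 0.055). At 3 weeks 4.95, 1.03 and 3.64 CPM stood against 3.4, 4.13 and 2.625 CPM, a difference of -0.06 ± 0.585 (0.97% of genes called). Irf1 was called higher at all 3 times in the same libraries, by 1.69 ± 0.21, 1.89 ± 0.23 and 1.47 ± 0.23 log2 units. In CT26 Cxcl10 was 0.925 ± 0.79, 1.025 ± 0.90 and 1.59 ± 0.835 log2 units above its controls at 1, 2 and 3 weeks, and none of these was called (0.728%, 1.67% and 7.23% of genes called).

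The highest Cxcl10 levels of the series followed rechallenge for 2 h. YUMM2.1 cells gave 79.5, 71.4 and 68.6 CPM at 1 week, 65.1, 48.1 and 59.4 CPM at 2 weeks, and 68.8, 102 and 84.1 CPM at 3 weeks. Against unrechallenged cells of the same week the rises were 4.06 ± 0.38, 2.71 ± 0.33 and 4.53 ± 0.43 log2 units (16.7-, 6.55- and 23.1-fold). Their edgeR adjusted p-values were 8.9e-11, 1.6e-07 and 8.5e-11, with 0.615%, 0.428% and 1.08% of genes called. All 3 calls held in each of the 9 alternative settings tried. Without the shallow replicate 3 of the unrechallenged 3-week cells, which had 1 Cxcl10 count, the 3-week rise was 4.53 (adjusted p = 1.1e-09). By 24 h the levels were 33.5, 24.98 and 34.8 CPM at 1 week, 31.4, 28.2 and 29.7 CPM at 2 weeks, and 9.65, 9.23 and 5.57 CPM at 3 weeks. The 1-week rise was 2.875 ± 0.41 (adjusted p = 2.3e-06, 1.42% of genes called) and held in all 9 settings. The 2-week rise was 1.695 ± 0.35 (adjusted p = 0.0054, 0.615% of genes called) and was lost without any 1 of the 3 replicate numbers (adjusted p 0.058 to 0.151). The 3-week difference of 1.21 ± 0.55 was not called (adjusted p = 1).

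The 24 h rechallenge at 3 weeks called no gene of either line, that is 0% in both. By edgeR, an unadjusted p below 0.05 was found there for 351 genes of the melanoma line and 439 of the carcinoma line, and DESeq2 called 1 and 0 genes. Without the filter on low counts edgeR called 27 and 37. A 24 h Cxcl10 response at 3 weeks smaller than the naive one by 1.37 ± 0.85 log2 units was not called in YUMM2.1 (adjusted p = 0.86, 0.615% of genes called). The corresponding 2 h response was larger by 1.10 ± 0.90 (adjusted p = 0.88, 0.115% of genes called). In CT26 the same differences were -2.58 ± 1.05 at 24 h (adjusted p = 0.48, 1.2% of genes called) and 0.58 ± 1.17 at 2 h (adjusted p = 1.00, 0.211% of genes called).

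Rechallenged CT26 cells had 16.9, 14.1 and 14.3 CPM of Cxcl10 after 2 h at 1 week, 4.81, 7.12 and 6.02 CPM at 2 weeks and 20.3, 22.7 and 11.6 CPM at 3 weeks. At 1 week these lay above all 3 unrechallenged values (6.43, 3.86 and 0 CPM), while at 2 and 3 weeks 1 unrechallenged library reached into the range. At 3 weeks that was the shallow replicate 3, with 4 counts (13.6 CPM), beside 4.63 and 3.88 CPM in replicates 1 and 2. The differences of 1.65 ± 0.64, 0.89 ± 0.65 and 1.64 ± 0.65 log2 units were not called (adjusted p = 0.43, 0.86 and 0.58), where 0.376%, 0.305% and 0.0117% of genes were. At 24 h the differences were 0.54 ± 0.71, 0.55 ± 0.69 and 0.38 ± 0.72, none called (1.32%, 0.658% and 0% of genes called).

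To set rechallenged cells beside naive cells given IFNγ for the same hours, their levels were compared directly. This set of comparisons was added after first results were seen, and by itself it does not separate exposure to IFNγ from weeks of culture. Between 3-week and 0-week controls Cxcl10 differed by 1.25 ± 0.63 log2 units in YUMM2.1 and 0.21 ± 0.90 in CT26, neither called. The part of culture time in the differences below was not tested. In YUMM2.1 Cxcl10 at 2 h was higher after 1, 2 and 3 weeks by 2.12 ± 0.30, 1.91 ± 0.30 and 2.29 ± 0.30 log2 units (4.345-, 3.77- and 4.90-fold). The adjusted p-values were 2.6e-06, 1.7e-05 and 2.8e-07, with 1.8%, 2.15% and 8.1% of genes called, and the calls held in every setting tried. At 24 h it was higher after 1 and 2 weeks by 1.775 ± 0.36 and 1.74 ± 0.36 (adjusted p = 0.0026 and 0.0037, 0.834% and 0.824% of genes called). Both 24 h calls were lost without replicate 1 (adjusted p = 0.168 and 0.170) or without replicate 2 (0.077 and 0.115). After 3 weeks the 24 h difference was -0.18 ± 0.41 (adjusted p = 0.96, 0.813% of genes called). In those 3-week libraries Irf1 differed from the naive 24 h level by -0.85 ± 0.18 (adjusted p = 0.0076).

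In CT26 the same 2 h comparison gave 2.15 ± 0.60 at 1 week (adjusted p = 0.053, 1.61% of genes called), 0.89 ± 0.64 at 2 weeks (2.09%) and 2.37 ± 0.605 at 3 weeks. The last was called (5.18-fold, adjusted p = 0.0074) in a comparison with 10.3% of genes called, and it was lost without replicate 1 (adjusted p = 0.325). The 1-week difference passed without the filter on low counts (adjusted p = 0.0074), with DESeq2 (0.026), with library totals (0.045), without the shallow libraries (0.038) and without replicate 2 (0.0087). At 24 h the CT26 differences were -0.85 ± 0.60, -1.35 ± 0.61 and -0.78 ± 0.62, none called (1.36%, 1.68% and 2.48% of genes called).

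Cxcl9, whose product attracts the same CXCR3-bearing cells, was almost absent. CT26 had no count in any of 45 libraries, 0 of 56549425 counts, which allows up to 0.0531 CPM over the line. YUMM2.1 had 26 counts in all, in 12 of 45 libraries. The group with most was 24 h of rechallenge at 1 week, with 1, 7 and 3 counts (1.01, 5.14 and 2.43 CPM). Replicate 2 held 7 of these 11 counts, and none of the unrechallenged 1-week cells had a count. Naive cells had 1 count at 2 h and none at 24 h. After 2 h of rechallenge at 1 week there were 3, 2 and 0 counts, a pooled 1.15 CPM with an exact 95% Poisson interval of 0.372 to 2.68. Cxcl9 did not pass the filter on low counts.

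Cxcl11 gave 264 counts in YUMM2.1 (median 3.73 CPM) and 21 in CT26. In naive YUMM2.1 cells the controls had 4.82, 2.46 and 3.72 CPM, the 2 h cells 3.37, 3.73 and 4.255 CPM and the 24 h cells 3.497, 1.955 and 2.56 CPM, and the groups overlapped. Over the 20 comparisons of that line no Cxcl11 difference was called. The 2 h rechallenges, in which Cxcl10 rose most, gave 0.54 ± 0.68, -0.69 ± 0.59 and -0.45 ± 0.64 log2 units at 1, 2 and 3 weeks. In the 0-week controls it was 3.58 ± 1.05 log2 units higher in YUMM2.1 than in CT26 (adjusted p = 0.0034, 46% of genes called). The call was lost without replicate 3 (adjusted p = 0.060). Over the 15 group means of YUMM2.1, Cxcl11 and Cxcl10 had Pearson r = 0.193, given as a description.

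**Figure D2:**
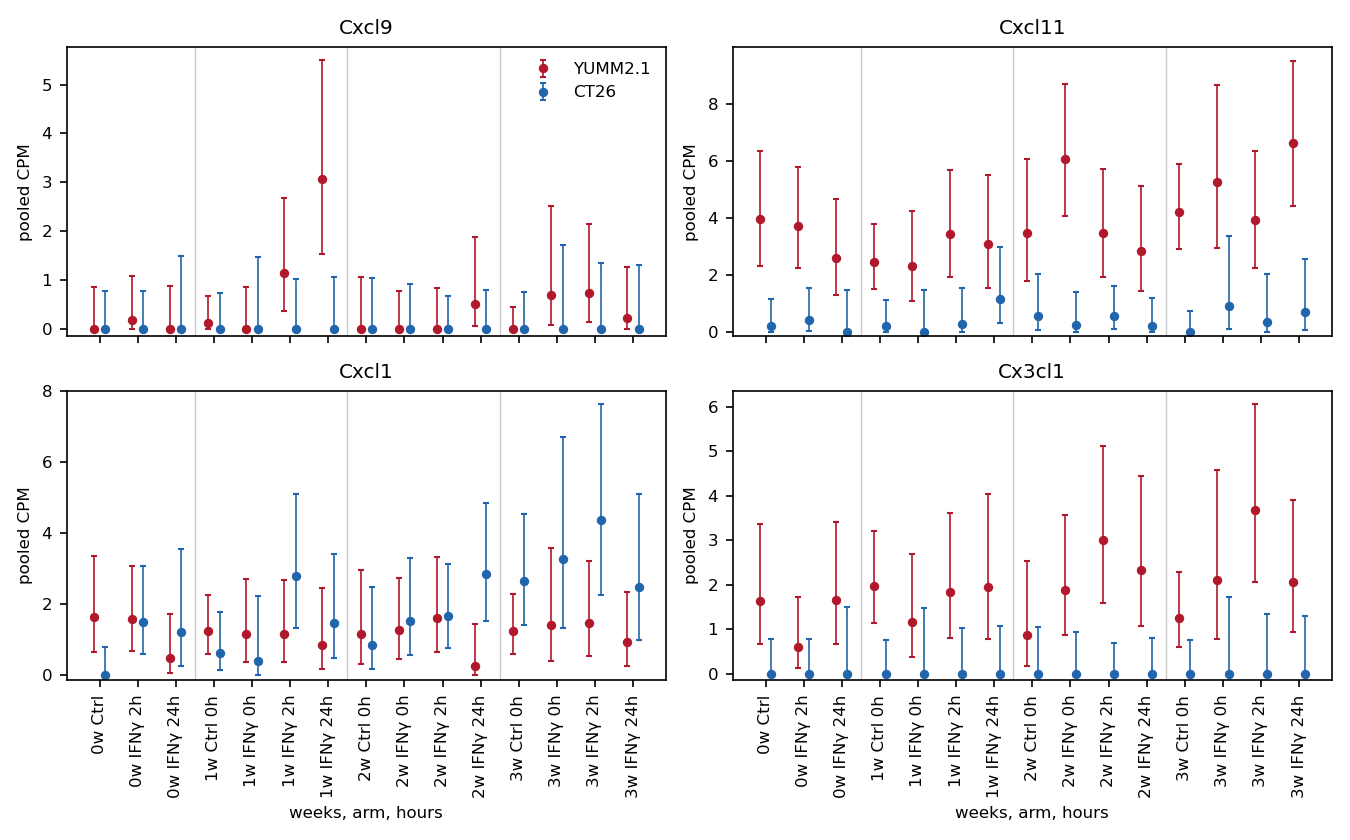
Pooled level of Cxcl9, Cxcl11, Cxcl1 and Cx3cl1 in each group (y axis, CPM of the 3 libraries pooled, linear) in YUMM2.1 (red) and CT26 (blue). Bars are exact 95% Poisson intervals, which cover counting error only. Cxcl9 and Cx3cl1 are at 0 in every CT26 group, and the highest Cxcl9 point is YUMM2.1 at 1 week, 24 h.

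Ccl2 was the most abundant member, and in YUMM2.1 alone. There its level ran from 400.1 to 820 CPM over 45 libraries, with 166 to 2012 counts each. CT26 gave 14 counts in 11 of 45 libraries. In the 0-week controls YUMM2.1 had 483, 400.1 and 449 CPM and CT26 had no count in 3 libraries, so that YUMM2.1 was at least 717-fold higher against a floor of 3 counts over the group. The edgeR fit over both lines called this difference (adjusted p = 1.7e-34), in a comparison where 46% of the 10339 genes tested were called. Ccl2 did not pass the threshold in any IFNγ comparison of YUMM2.1. Naive cells gave 503, 466 and 526 CPM at 2 h and 493, 526 and 607 CPM at 24 h, differences of 0.18 ± 0.13 and 0.27 ± 0.13 log2 units (adjusted p = 1 and 0.70). The highest group mean was that of 3-week cells rechallenged for 24 h, 738 ± 72 CPM (SD, n = 3), and the lowest was that of the 0-week controls, 444 ± 42 CPM. Of the 14 neighbouring pairs in the order of group means, all but 1 overlapped in their single values.

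Control cultures of YUMM2.1 changed in Ccl2 without IFNγ. The 3-week controls had 630, 708 and 660 CPM, all above the 0-week controls, a rise of 0.62 ± 0.13 log2 units (1.53-fold, adjusted p = 0.0089, 0.521% of genes called). Ccl7 rose with it, from 47.7, 51.7 and 68.2 CPM to 104, 85.6 and 95.5 CPM, by 0.80 ± 0.17 (1.74-fold, adjusted p = 0.013). Cxcl10 and Csf1 were higher in the 3-week controls too, by 1.25 ± 0.63 and 0.795 ± 0.38 log2 units. Their values did not overlap those of the 0-week controls, and neither difference was called (adjusted p = 0.61 and 0.58). The Ccl2 call was lost without any 1 replicate number (adjusted p 0.118 to 0.297), and that of Ccl7 without replicate 1 or 2 (adjusted p = 0.595 and 0.200). Rechallenged 3-week cells at 24 h had more Ccl7 than naive cells at 24 h, 125, 125 and 118 CPM against 54.8, 67.4 and 59.4 CPM. The difference of 0.99 ± 0.18 was called (adjusted p = 6.4e-04, 0.813% of genes called) and was lost without replicate 1 (adjusted p = 0.181). In the same comparison Ccl2 was higher by 0.41 ± 0.13 and not called (adjusted p = 0.16). It passed with library totals (adjusted p = 0.016) and with DESeq2 (0.021). At 2 h the 3-week Ccl2 difference of 0.265 ± 0.13 passed with library totals (adjusted p = 0.014). Of the 13 leukocyte markers, Cd68 was called in the 24 h comparison (2.52 ± 0.59, adjusted p = 0.017), at no more than 21.9 CPM in any YUMM2.1 library. In that line 5 of the 13 had no counts, and 10, those included, averaged under 1 count per library. Lyz2 had 61 counts there, S100a8 50 and Cd3d 38. The part of Cd68 in the Ccl7 difference was not tested. In CT26 controls, neither tested member was called between 3 and 0 weeks, where 0.916% of genes were.

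Apart from the comparison of levels with naive cells given above, Ccl7 had 1 IFNγ call, and it was downward. In YUMM2.1 at 3 weeks the level went from 113, 130 and 106 CPM in unrechallenged cells to 77.5, 54.5 and 45.6 CPM after 2 h of rechallenge. No values overlapped, and the fall was -1.04 ± 0.19 log2 units (0.486-fold, adjusted p = 4.7e-04). Cxcl10 and Ccl7 were the 2 of 6 tested members called in that comparison, in opposite directions, where 1.08% of genes were called. Without the shallow replicate 3 of the unrechallenged cells the fall was -1.09 (adjusted p = 6.4e-04). The Ccl7 call was lost without replicate 2 (-0.83, adjusted p = 0.132) and when the fit held only the 2 groups compared (adjusted p = 0.061). At 1 and 2 weeks the 2 h differences were -0.305 ± 0.19 and -0.54 ± 0.19 and in naive cells -0.32 ± 0.19, none called. At 24 h of rechallenge at 3 weeks Ccl7 was back at 125, 125 and 118 CPM. The direct test of whether the 3-week 2 h response differed from the naive one gave -0.72 ± 0.27 (adjusted p = 0.59). In CT26 Ccl7 had 4 counts in all.

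Ccl5 had low counts in both lines, with a median of 11.9 CPM for YUMM2.1 libraries and 1.43 CPM for those of CT26. In the 0-week controls it was 2.13 ± 0.59 log2 units higher in YUMM2.1 (adjusted p = 0.0018, 46% of genes called). The call was lost without replicate 1 (adjusted p = 0.170). No IFNγ comparison called it. Its highest group mean was YUMM2.1 at 2 weeks after 24 h of rechallenge, with 25.1, 25.9 and 15.04 CPM against 4.66, 7.82 and 7.26 CPM in naive cells at 24 h. The groups did not overlap and differed by 1.64 ± 0.44 log2 units, just outside the threshold (adjusted p = 0.059) and inside it without the filter on low counts (adjusted p = 0.035). At 1 week the same difference was 1.283 ± 0.45 (adjusted p = 0.2535).

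**Figure D3:**
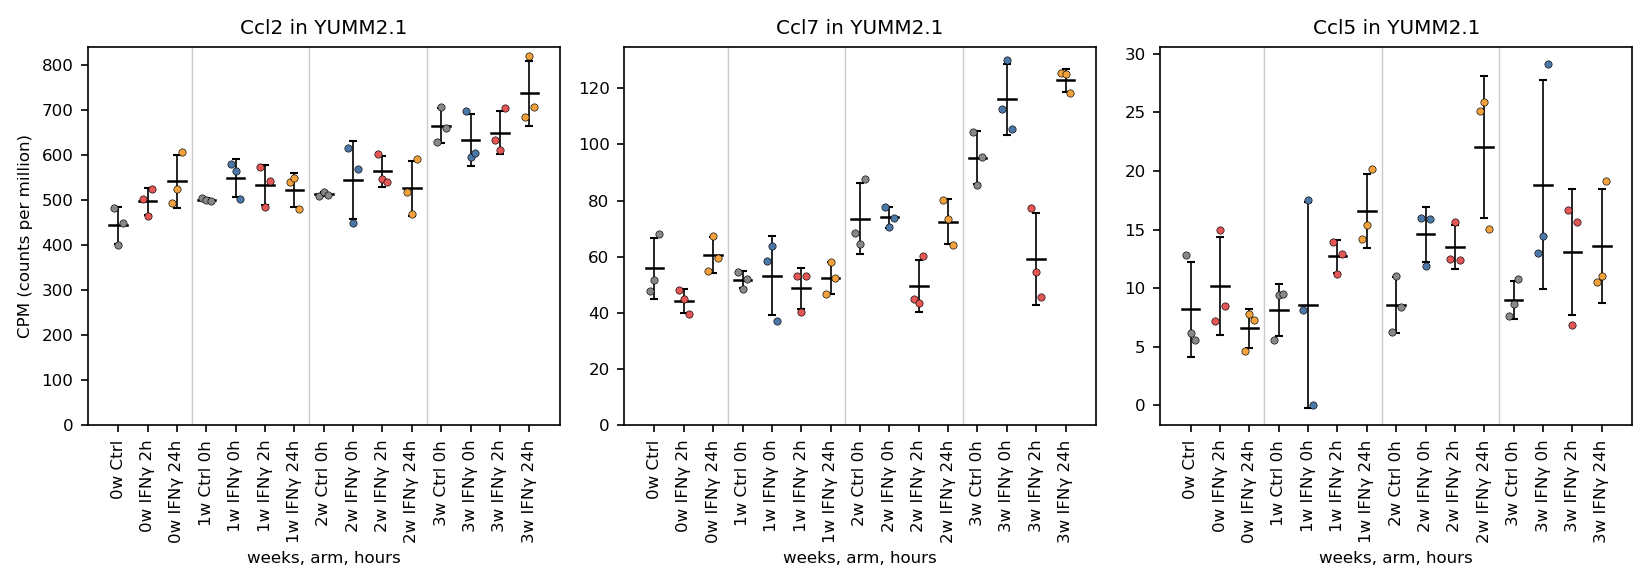
Ccl2, Ccl7 and Ccl5 in YUMM2.1 (y axes, CPM, linear, a different range in each panel) in the 15 groups, with the 3 replicates as points, the group mean as a line and its SD as a bar. Grey is control, blue IFNγ without rechallenge, red 2 h and orange 24 h. At 3 weeks the red Ccl7 points (45.6 to 77.5 CPM) lie below the grey, blue and orange ones of that week.

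The other 3 attractants were scarce. Cxcl16 had no count in any of the 90 libraries, which allows up to 0.0429 CPM over YUMM2.1 and 0.0531 CPM over CT26. Cx3cl1 had no count in CT26 and 127 counts in YUMM2.1, with a median of 1.85 CPM. Its pooled level was 3.67 CPM after 2 h of rechallenge at 3 weeks against 2.1 CPM without rechallenge, a ratio of 1.75 with an exact 95% interval of 0.642 to 5.505. Cxcl1 had 82 counts in YUMM2.1 and 99 in CT26. In the 0-week controls of YUMM2.1 it had 1, 2 and 4 counts against none in CT26, at least 2.57-fold higher, and the difference was called when the fit had no filter on low counts (adjusted p = 0.048). In CT26 Cxcl1 had no count in the 3 controls at 0 weeks and 4, 4 and 5 counts in the 3-week controls. Against the same floor, with those counts taken as exact, the ratio was 4.17. Between CT26 cells in IFNγ and controls at 3 weeks no difference was detectable at this depth (7 against 13 counts, ratio 1.23, interval 0.4155 to 3.32). These intervals cover counting error only.

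Csf1 was measured in every library of both lines. In the 0-week controls it was lower in YUMM2.1 (10.7, 16.004 and 9.30 CPM) than in CT26 (21.3, 37.6 and 25.04 CPM). The difference of -1.46 ± 0.42 log2 units was called (adjusted p = 0.0028, 46% of genes called) and held in all 9 settings. In naive YUMM2.1 cells it measured 21.9, 48.5 and 20.6 CPM after 2 h and 29.1, 21.5 and 38.9 CPM after 24 h, with every treated library above every control. The rises were 1.38 ± 0.38 and 1.41 ± 0.39 log2 units (2.60- and 2.65-fold). They were not called over all genes (adjusted p = 0.24 and 0.073). They were called without the filter on low counts (adjusted p = 0.0033 and 0.0016), and that at 24 h also without replicate 2 (0.0096) and with only the compared groups in the fit (0.040). In CT26 the naive differences were 0.155 ± 0.37 and 0.12 ± 0.41. The difference between the lines in the 24 h response was 1.27 ± 0.58 (adjusted p = 0.59).

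At 3 weeks Csf1 was higher in CT26 cells kept in IFNγ than in controls of the same week. Cells in IFNγ had 48.1, 73.6 and 27.1 CPM and their controls 9.86, 14.2 and 15.6 CPM, without overlap. The difference of 1.76 ± 0.42 log2 units was called (3.40-fold, adjusted p = 0.0049), in a comparison where 7.23% of genes were. It was lost without replicate 1 (adjusted p = 0.092) or replicate 2 (0.088). Without the shallow replicate 3 of the treated cells, which had 8 Csf1 counts, it was 1.93 (adjusted p = 0.0034). Against the 0-week controls of that line, the 3-week controls differed by -0.97 ± 0.41 (adjusted p = 0.33, or 0.044 with only the compared groups in the fit), and the cells in IFNγ overlapped the 0-week controls. The 1- and 2-week differences were 0.98 ± 0.45 and 0.69 ± 0.45, not called. In YUMM2.1 the differences at 1, 2 and 3 weeks were 0.19 ± 0.34, 0.15 ± 0.38 and 0.54 ± 0.36, not called.

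The highest Csf1 means of both lines were those of 3-week cells rechallenged for 2 h. YUMM2.1 had 47.1, 123 and 48.5 CPM there and CT26 48.2, 111 and 56.8 CPM. Both lay above the naive 2 h cells on average. The differences were 1.13 ± 0.31 log2 units in YUMM2.1 (adjusted p = 0.017) and 1.07 ± 0.36 in CT26 (adjusted p = 0.049). In these comparisons 8.1% and 10.3% of all genes tested were called. They belong to the set added after first results, which by itself does not separate exposure to IFNγ from weeks of culture. Between 3-week and 0-week controls Csf1 differed by 0.795 ± 0.38 in YUMM2.1 and -0.97 ± 0.41 in CT26, neither called in the main fit. Both calls against naive cells were lost without replicate 1 (adjusted p = 0.207 and 0.322) or replicate 2 (0.075 and 0.181). That in CT26 was also lost with DESeq2 (0.0501) and that in YUMM2.1 with only the compared groups (0.094). Against unrechallenged 3-week cells the differences were 1.18 ± 0.34 (adjusted p = 0.082) and 0.43 ± 0.37 (adjusted p = 0.91). In YUMM2.1 the former passed without the filter on low counts (adjusted p = 0.0030) and without replicate 3 (0.030).

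Csf1 varied with replicate number in the same way in both lines. Replicate 2 was the highest in 7 of 8 groups given IFNγ for 2 h, and replicate 3 in 7 of 8 groups given it for 24 h. Within-group deviations of Csf1 had r = 0.347 between the lines over 45 pairs of same-labelled libraries, and its 15 group means r = 0.74. For Cxcl10 these were 0.278 and 0.709. The part of this shared variation in the Csf1 differences was not tested. Csf1 and Cxcl10 group means had r = 0.796 in YUMM2.1 and 0.781 in CT26, both over 15 groups that share libraries and the same treatment.

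**Figure D4:**
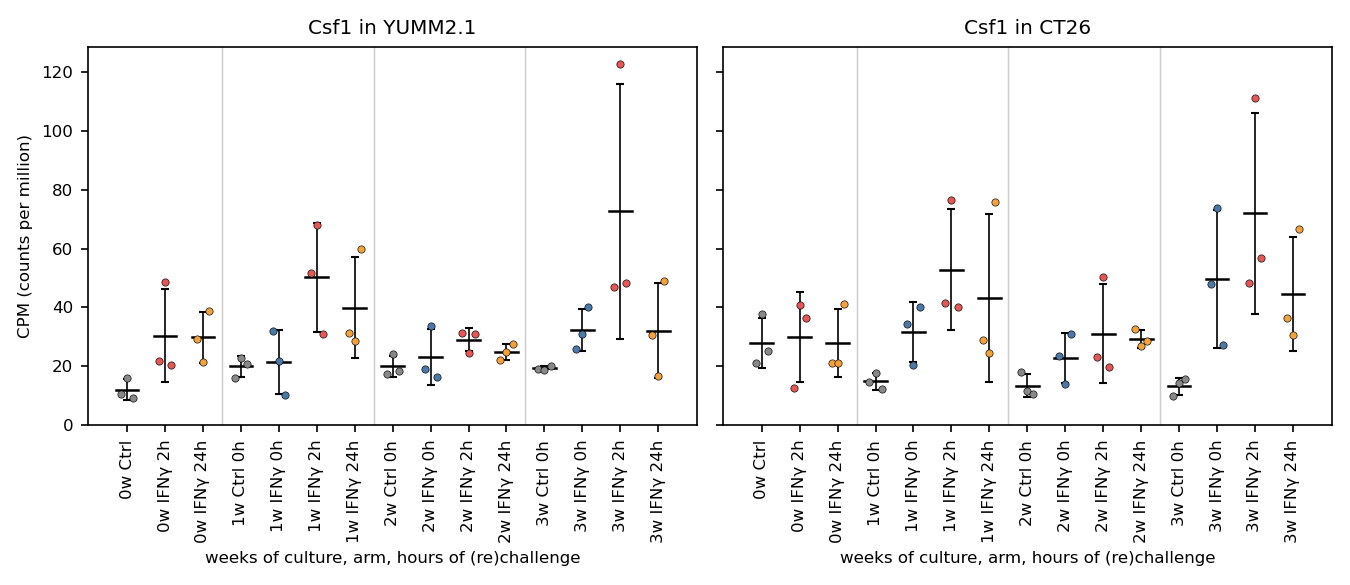
Csf1 in CPM (y axis, linear) in the 15 groups of YUMM2.1 (left) and CT26 (right), with the 3 replicates as points in the order 1 to 3 from left to right, the group mean as a line and its SD as a bar. Grey is control, blue IFNγ without rechallenge, red 2 h and orange 24 h. In red groups the middle point (replicate 2) and in orange groups the right point (replicate 3) is the highest in 7 of 8 groups each.

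Of the genes that control these chemokines, 15 were listed (the IFNγ receptor and its kinases, transcription factors such as IRF1 and IRF8, and NF-κB subunits and inhibitors), and the filter kept 12 for YUMM2.1 and 10 for CT26. In naive YUMM2.1 cells Irf1 rose by 4.07 ± 0.21 log2 units at 2 h and 2.82 ± 0.23 at 24 h. In CT26 Irf1 rose by 3.46 ± 0.22 and 2.31 ± 0.27. After 2 h of rechallenge in YUMM2.1, Irf1 was the 1 gene of 12 called at each week, by 2.74 ± 0.17, 1.90 ± 0.16 and 2.78 ± 0.19, in the comparisons in which Cxcl10 rose most. The median log2 fold change over the 12 was 0.452, 0.078 and 0.568 at 1, 2 and 3 weeks, against 0.011, -0.001 and 0.029 over all genes tested. In CT26 it was called at 1 and 2 weeks (1.79 ± 0.21 and 1.77 ± 0.18) and not at 3 weeks.

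The remaining lists held few measurable genes. Of 28 other chemokines, 24 in YUMM2.1 and 26 in CT26 averaged under 1 count per library, and none was called in any comparison. Ccl25 was the most abundant, with medians of 18.6 and 13.7 CPM. Of 13 receptors and decoys, Csf1r had 21 counts in YUMM2.1 and 4 in CT26. Cxcr3, the receptor of Cxcl10, had 92 counts in YUMM2.1 and none in CT26. Cxcr2 was listed at medians of 341 and 1984 CPM, lower by -2.39 ± 0.14 log2 units in YUMM2.1 at 0 weeks. That comparison of the lines, which also gave the Il34 and Adam10 differences between them below, called 46% of genes tested. In cells kept in IFNγ Cxcr2 was called lower in YUMM2.1 at 2 weeks (-0.61 ± 0.155) and in CT26 at 3 weeks (-0.47 ± 0.105). In YUMM2.1 it was higher after 2 h of rechallenge at 3 weeks (0.64 ± 0.16) and lower in 3-week than 0-week controls (-0.65 ± 0.15). Rechallenged CT26 cells had less than naive ones at 2 h after 3 weeks (-0.36 ± 0.10) and at 24 h after 1 and 3 weeks (-0.39 ± 0.105 and -0.43 ± 0.105). Among the growth factors Il34, another ligand of CSF1R, had a median of 80.7 CPM for YUMM2.1 libraries and 1.69 CPM for those of CT26. It was 6.36 ± 0.35 log2 units higher in YUMM2.1 controls at 0 weeks (adjusted p = 1.1e-26), while Csf1 was lower there. Kitl fell in YUMM2.1 after 24 h of rechallenge at 1 week (-0.70 ± 0.19, adjusted p = 0.038). Of 6 proteases that shed or trim the members, Adam10, which sheds Cxcl16 and Cx3cl1, was 2.52 ± 0.32 log2 units higher in YUMM2.1 (adjusted p = 2.2e-10). It was also higher at 2 h in rechallenged than in naive YUMM2.1 cells at 1 and 3 weeks (1.03 ± 0.25 and 0.93 ± 0.25, adjusted p = 0.0175 and 0.015).

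**Figure D5:**
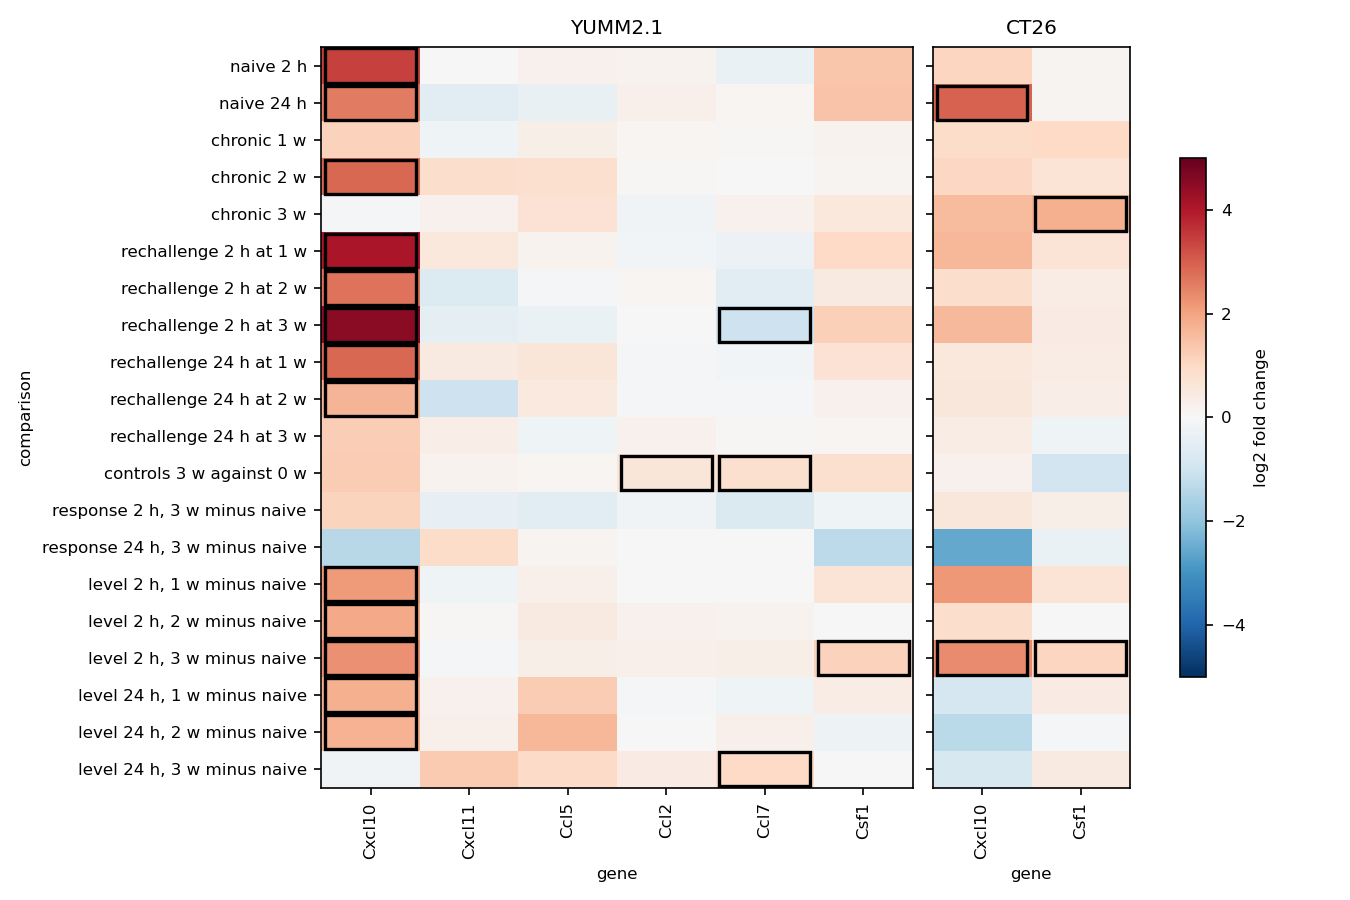
Log2 fold change (colour, blue lower and red higher) of each tested member (columns) in the 20 comparisons of YUMM2.1 (left) and CT26 (right). Rows named level compare rechallenged with naive cells at the same hour and rows named response compare rises; black frames mark adjusted p below 0.05. Most frames lie in the Cxcl10 column of YUMM2.1.

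The genes whose group means followed a member most closely were found by Pearson r of log2 CPM over the 15 groups of a line, as a description. For Cxcl10 in YUMM2.1 they were Cd274, which encodes PD-L1 (r = 0.953), Gm7967 (0.939) and Irf1 (0.938). In CT26 they were Gm15433 (0.9), Ifi203 (0.893) and Dtx3l (0.88). For Csf1 they were Cbl (0.893), Mgea5 (0.891) and Stat2 (0.891) in YUMM2.1, and Naa15 (0.924), Zc3hav1 (0.919) and Ankib1 (0.916) in CT26. For Ccl2 the highest r was 0.845 with Rbm38, and for Ccl7 it was 0.853 with Eps8. Ccl2 and Ccl7 themselves had r = 0.696, and Ccl7 and Cxcl10 had r = -0.394.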

How the data were processed

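The authors deposited 1 matrix of raw counts per gene from 3′ digital gene expression libraries. Salmon 0.13.1 and the mm10 genome are named in the submitters' processing notes. Whether molecular identifiers were collapsed or strand was used is not given in the sources used here. The study set aside some libraries as outliers without naming them, so all 90 were kept. Counts of 53697 gene identifiers, 53668 with a symbol, were used as deposited. Each line's 45 libraries were fitted together in edgeR 4.0.16 (R 4.3.3, limma 3.58.1) with filterByExpr by group, TMM scaling and quasi-likelihood tests. Genes with a Benjamini-Hochberg adjusted p below 0.05 were called. A fit over both lines gave the comparisons between them. Levels are counts scaled to the library total (CPM). Limits for a count of 0 use 3 counts, and Poisson intervals are at 95%; both cover counting error only.

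The 10 members and all lists were chosen with earlier results of these data known. All members are named; other genes are named from the lists, or as the 3 with the highest r to a called member over 15 group means. Of 42 comparisons, 12 (rechallenged against naive levels) were added after first results. Over 90 pairs of replicates, none had identical counts and chi-square per degree of freedom was 1.83 to 7.05. Replicate numbers were tested for pairing in 18 comparisons per line. Every pair's correlation passed 0.1 in 1 YUMM2.1 comparison (2 h level, 1 w against naive) and in 0 of CT26, so no pairing was taken as the main design. Alternatives were DESeq2 1.42.0, library totals, no filter, fits of only the compared groups, the replicate block, each replicate number left out in turn, and libraries dropped when under 25% of the line's median. The fitting script was tested on simulated data. Figures used Python 3.11.15 and matplotlib 3.10.9. A few listed genes are not reported here.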

Additional observations from a re-analysis of the deposited data

How the results depend on the processing

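No member call reversed in any of the 9 alternative settings. Of 27 member calls, 11 held in each alternative in which the gene was tested. The other 16 were lost in at least 1, of which 13 were lost only when a replicate number was left out. Counts of called members that moved by over 1.5 times follow, with other changes where named. Without the filter on low counts, YUMM2.1 had 2 in place of 1 for naive 2 h, naive 24 h, rechallenge 2 h at 1 w and the 24 h level at 2 w, through Csf1 or Ccl5, and CT26 had 1 in place of 0 for the 2 h level at 1 w. Csf1 was also gained for rechallenge 2 h at 3 w (3 in place of 2) and Cxcl1 between the 0-week controls of both lines (6 in place of 5). With only the compared groups in the fit, YUMM2.1 chronic 2 w and CT26 naive 24 h had 0 in place of 1, since fewer genes passed the filter and Cxcl10 was not tested. In YUMM2.1 naive 24 h Cxcl10 was not tested either, and the count stayed at 1 through Csf1. The 0-week controls of both lines had 3 in place of 5, since Cxcl11 and Ccl5 were not tested. In the main fit 46% of all genes tested were called in that comparison. YUMM2.1 rechallenge 2 h at 3 w and the 2 h level at 3 w then had 1 in place of 2 and CT26 controls 1 in place of 0, where calls over all genes went from 104 to 38, 777 to 210 and 78 to 220. DESeq2 gave 2 in place of 1 for the YUMM2.1 24 h level at 3 w, 1 in place of 0 for the CT26 2 h level at 1 w and 1 in place of 2 for that at 3 w. Library totals gave 2 for the YUMM2.1 24 h level at 3 w and 1 for the CT26 2 h level at 1 w, and leaving out shallow libraries gave 1 for the latter. The cause of the other changes was not tested.

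Leaving out 1 replicate number at a time gave 0 to 2 called members for YUMM2.1 naive 24 h, 1 to 3 for rechallenge 2 h at 3 w, and 1 to 2 for the 2 h level at 3 w. It gave 0 in all cases for rechallenge 24 h at 2 w. It gave 0 to 1 for YUMM2.1 chronic 1 w, chronic 2 w, controls, and the 24 h levels at 1, 2 and 3 w, and for CT26 naive 24 h, chronic 3 w and the 2 h level at 1 w. For the CT26 2 h level at 3 w it gave 0 to 2. Calls over all genes moved too, to between 33 and 112 for YUMM2.1 rechallenge 2 h at 3 w (104 with all replicates), between 111 and 666 for its 2 h level at 3 w (777) and between 210 and 785 for that of CT26 (876). Calls over all genes were 62 to 75 for YUMM2.1 naive 24 h (85 with all replicates). Chronic 1 w had 44 to 57 (70) and chronic 2 w 54 to 68 (107). YUMM2.1 controls had 9 to 15 (50) and rechallenge 24 h at 2 w 21 to 31 (59). The 24 h levels at 1, 2 and 3 w had 30 to 58 (80), 24 to 50 (79) and 14 to 79 (78). CT26 had 105 to 249 for naive 24 h (174) and 185 to 518 for chronic 3 w (616). The replicate block moved 0 of 42 counts. It fits a shift per replicate number common to all groups of a line. It cannot take up shifts that differ between groups, such as those of Csf1 at 2 h and 24 h. In the 1 comparison whose replicate numbers correlated, Cxcl10 was 2.12 with the replicate block (edgeR adjusted p = 4.5e-06), and no other call changed there. Cxcl9, Cxcl1, Cx3cl1 and Cxcl16 did not pass the filter on low counts in either line, and Cxcl16 had no counts to test.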
